A study of Mus musculus with 22 samples.

Results

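Lungs of hypoxic mice treated with ABT-263 were compared with lungs of hypoxic mice given its vehicle. Libraries were assigned by their titles, which placed 5 in the hypoxia ABT-263 group and 6 in the hypoxia vehicle group, so 11 of the 22 libraries of the study entered the comparison. Each group consisted of whole lung from young male mice of genotype C57BL6/j, taken at day 8. ABT-263 was dosed at 50 mg/kg/day, and both groups were held under hypoxia. Neither the oxygen level, the route of dosing nor the make-up of the vehicle is given in the sources used here. The other 11 libraries came from normoxic mice of the same genotype, 6 with ABT-263 and 5 with vehicle, and served as the reference for the oxygen condition. In 1 of them, normoxic ABT-263 replicate 1, the treatment tag contradicted the title. The treatment tag contradicted the title in 2 of the 11 hypoxia libraries: vehicle replicate 1 was tagged as ABT-263, and ABT-263 replicate 1 was tagged as vehicle. Titles were followed, and the numbers of called genes, B cell calls and chaperone calls are also given without these 2 libraries. The labels do not say that each library is 1 mouse, so p-values measure the spread between these libraries.

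ABT-263 (navitoclax) is a small molecule that occupies the BH3-binding groove of BCL-2, BCL-XL and BCL-W. These proteins hold the pore formers BAX and BAK in check, and their block releases cytochrome c from mitochondria and starts the caspase cascade in cells that depend on them. Mature B cells rely on BCL-2 and platelets on BCL-XL, and senescent cells often lean on either, which is why the compound is used as a senolytic. In rodents, chronic hypoxia is a standard way to raise pulmonary arterial pressure and to thicken the walls of small pulmonary arteries.

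The 11 libraries held 11509007 to 15230120 counts. Markers of lung were abundant throughout, with Sftpc, the surfactant protein C gene of alveolar type 2 cells, between 22554 and 32951 CPM (counts relative to the scaled total of the library). Haemoglobin genes took 0.880% to 1.44% of the counts. No library pair of a group agreed within sampling noise, with a chi-square per gene between 6.90 and 28.93 over 25 pairs.

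Of 54532 genes in the table, 16638 had enough counts to be tested, and 50 of them (0.301%) passed an adjusted p of 0.05 in edgeR's quasi-likelihood test. ABT-263 was higher for 19 (0.114%) and lower for 31 (0.186%). Of the 31 genes that fell, 10 were on the list of B cell genes, and the largest rises were those of inducible heat shock chaperones. At an unadjusted p of 0.05, 1181 genes were higher (7.10%) and 1204 lower (7.24%). Fold changes were small for most of the 50: 7 genes were at least 2-fold higher and 3 at least 2-fold lower. The groups did not overlap for 33 of the 50. Over all genes tested, every ABT-263 library lay above every vehicle library for 209 genes (1.26%) and below for 121 (0.727%), and the median log2 fold change was -0.01. The count of 50 rested on single libraries: it was 228 without ABT-263 replicate 1, 3 without vehicle replicate 2, 4 without ABT-263 replicate 5 and 5 without ABT-263 replicate 4. It was 11 without vehicle replicate 1 or 4, 26 without vehicle replicate 3, 28 without ABT-263 replicate 2, 83 without normoxic ABT-263 replicate 2 and 32 without normoxic vehicle replicate 5. DESeq2 called 247 genes and limma-voom 9.

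B cell genes were lower with ABT-263. Of 27 tested members of the B cell list, 10 fell against a background of 0.186% of genes, none rose, and all 27 had a negative log2 fold change, with a median of -0.64. For 15 members every ABT-263 library lay below every vehicle library, as for 0.727% of all genes. In bulk tissue, fewer B cells and less RNA per B cell cannot be told apart. At an unadjusted p of 0.05, 23 members were lower, against 7.24% of all genes. For this list, the 2 hypoxia libraries with contradictory tags lay on the side of their titles. The mean log2 CPM of the list in ABT-263 replicate 1 differed from the vehicle mean by -0.43, below each vehicle library. In vehicle replicate 1 it differed by 0.22, above each other library. Both libraries were part of the groups compared, so this cannot decide between title and tag. For the chaperone genes Hspa1a, Hspa1b, Dnajb1 and Dnaja1, ABT-263 replicate 1 lay inside the vehicle range. The number of B cell calls was 10 without both of these libraries, 5 without vehicle replicate 1 and 2 without vehicle replicate 2. It was 6 without ABT-263 replicate 2 and 3 without ABT-263 replicate 4 or 5. DESeq2 called 17 members lower and limma-voom 4. Replicates are ordered here by the library numbers in the sample titles. In that order the mean log2 CPM of the list was 4.18, 4.05, 3.90, 3.88, 3.92 and 3.82 with vehicle. It was 3.53, 3.29, 3.40, 3.26 and 3.42 under ABT-263. Across the vehicle libraries 1 of the 27 members only decreased (3.7%), as did 0.216% of all genes. Every treated library has a higher number than every vehicle library, so number and treatment cannot be told apart.

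The smallest p was that of Ighd, the constant region of immunoglobulin D carried by naive mature B cells (GRCm38 chr12:113406604-113416324, minus strand). In order of library number, the vehicle libraries were at 66.9, 62.3, 52.4, 49.1, 49.2 and 45.5 CPM, with a median of 50.8. With ABT-263 the values were 31.9, 22.2, 23.9, 23.0 and 20.8 CPM. All 5 treated libraries lay below all vehicle libraries, and the highest of them was replicate 1, one of the libraries with a contradictory tag. The log2 fold change was -1.15 ± 0.13 (SE; adjusted p = 7.89e-05), a level 2.22-fold lower.

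Signalling parts of the B cell receptor followed. Cd79a, which carries the activation motif of the receptor, had vehicle values from 19.7 to 29.1 CPM with a median of 27.1, and ABT-263 values of 14.8, 14.5, 12.5, 15.3 and 15.8 CPM. Its partner Cd79b had 52.2 to 74.2 CPM with vehicle, with a median of 56.1, and 43.3, 31.9, 34.2, 27.9 and 35.4 CPM under ABT-263. Neither gene showed any overlap between groups, and the log2 fold changes were -0.81 ± 0.13 for Cd79a (adjusted p = 0.0116) and -0.76 ± 0.14 for Cd79b (adjusted p = 0.0198). Cd22, an inhibitory co-receptor that binds sialic acid, ranged from 15.9 to 26.7 CPM with vehicle and was at 14.0, 10.2, 12.3, 9.19 and 10.5 CPM under ABT-263. It fell by 0.80 ± 0.14 on the log2 scale (adjusted p = 0.0178), again without overlap.

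Receptors that place and sustain mature B cells were lower to a like degree. Cxcr5, the receptor for the follicle chemokine CXCL13, had 7.05 to 10.5 CPM with vehicle and 5.26, 4.69, 5.40, 4.46 and 6.28 CPM under ABT-263 (log2 fold change -0.70 ± 0.13, adjusted p = 0.0233). Tnfrsf13c, the receptor for the survival factor BAFF, had 3.21 to 5.08 CPM with vehicle and 3.17, 2.17, 2.37, 2.40 and 2.81 CPM under ABT-263 (-0.71 ± 0.16, adjusted p = 0.0497). For Tnfrsf13c the highest treated library and the lowest vehicle library were nearly level, without crossing. Among Fc receptors and their relatives, Fcmr, which binds immunoglobulin M, had a log2 fold change of -0.87 ± 0.16, Fcer2a (CD23, the low-affinity receptor for immunoglobulin E) one of -0.82 ± 0.16, and the intracellular Fcrla one of -0.64 ± 0.13 (adjusted p = 0.0178, 0.0282 and 0.0358).

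**Figure D1:**
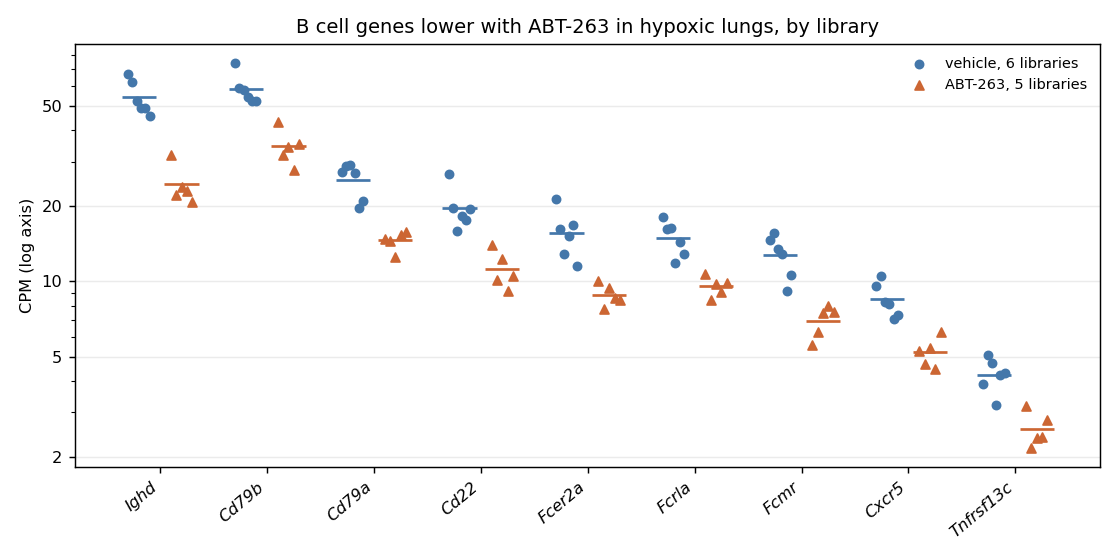
CPM on a log axis of 9 B cell genes that fell, with 1 point per library (blue circles, 6 vehicle; orange triangles, 5 ABT-263) and a line at each group mean. For each gene all treated libraries sit below all vehicle libraries; for Ighd they sit between 20.8 and 31.9 CPM against 45.5 to 66.9 CPM.

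Immunoglobulin segments took 0.0415% ± 0.00431 of the counts with vehicle (SD, n = 6) and 0.0280% ± 0.00463 with ABT-263 (SD, n = 5), and their ranges of 0.0380% to 0.0479% and 0.0252% to 0.0362% did not overlap. The exact two-sided permutation p was 0.002165, the smallest that 462 arrangements allow. The highest vehicle shares, 0.0479% and 0.0459%, were those of replicates 1 and 2, and the test takes no account of library number. Light chain segments passed in 3 cases, although reads shared among near-identical segments make single segments uncertain: Igkc (-0.61 ± 0.12), Iglc3 (-0.87 ± 0.18) and a kappa variable segment at chr6:68631963-68632442 on the minus strand (-1.45 ± 0.30), with adjusted p of 0.0294, 0.0371 and 0.0358. Igkc did not separate the groups, because ABT-263 replicate 5 was at 141 CPM and the lowest vehicle library at 133 CPM. Of the plasma cell list, 0 of 11 tested members passed in edgeR and 1 was lower at an unadjusted p of 0.05 (7.24% of all genes). Of the same members, 8 had a negative log2 fold change, and the median of the list was -0.20. Its mean log2 CPM was 3.30 to 3.45 with vehicle and 2.89, 3.16, 3.34, 3.27 and 3.28 under ABT-263, so that only treated replicate 3 lay within the vehicle range and the others lay below it. The summed level of the plasma cell list was 582 to 708 CPM with vehicle and 593 to 754 CPM under ABT-263.

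Other genes known from lymphocytes passed as well. Ltb, lymphotoxin beta, had 16.3 to 24.03 CPM with vehicle and 17.5, 14.3, 13.9, 14.0 and 12.1 CPM under ABT-263, with replicate 1 inside the vehicle range (-0.53 ± 0.11, adjusted p = 0.0415). The class II genes H2-Ob (-0.51 ± 0.11), whose product tunes peptide loading in B cells, and H2-Eb2 (-0.90 ± 0.20) fell as well, as did the lymphocyte GTPase gene Gimap3 (-0.64 ± 0.14), the Rab35 exchange factor gene Dennd1c (-0.58 ± 0.13) and Ripor2 (-0.51 ± 0.11), an inhibitor of RhoA. The wider list of dendritic cells and MHC class II had 1 of 22 tested members called, H2-Ob, against 0.301% of all genes, and a median of 0.03.

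Genes of NK and cytotoxic cells all had negative log2 fold changes (24 of 24 tested, median -0.47), but only Txk passed. Txk, a Tec family kinase of T and NK cells, had 3.12 to 4.42 CPM with vehicle and 2.02, 2.52, 2.70, 1.41 and 1.49 CPM under ABT-263 (-0.97 ± 0.20, adjusted p = 0.0358). The groups did not overlap. Of the list, 11 members were lower at an unadjusted p of 0.05, as were 7.24% of all genes. Among them were the NK receptor gene Klrb1c (-0.72 ± 0.17, adjusted p = 0.0558) and the cathepsin gene Ctsw (-0.92 ± 0.23, adjusted p = 0.0724). Txk lost its call without vehicle replicate 1, 2, 4 or 6 and without ABT-263 replicate 4 or 5, and replicate 4 had the lowest score of its group for this list. Without the 2 hypoxia libraries with contradictory tags, 0 members of the list were called. T cell genes had a median of -0.25, with 23 of 25 tested members negative. By edgeR 0 were called and by DESeq2 1, and 9 were lower at an unadjusted p of 0.05 (7.24% of all genes). The smallest p belonged to Trac, the T cell receptor alpha constant region, with 3.59 to 6.01 CPM with vehicle and 3.10, 2.52, 2.70, 3.54 and 3.30 CPM under ABT-263 (-0.62 ± 0.15, adjusted p = 0.0732).

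The inducible HSP70 genes Hspa1a and Hspa1b had the largest rises. Their products refold damaged proteins, and their transcription is switched on by heat shock factor 1, which binds repeats of the unit nGAAn in alternating orientation. The promoter windows of both genes (RefSeq, GRCm38.p6, 250 bases before to 50 bases after the start, minus strand) are shown because the genes were read as a pair, with capitals on the only match to GAANNTTC or TTCNNGAA, 2 such units facing each other. The windows lie at chr17:34972107-34972406 for Hspa1a and chr17:34959189-34959488 for Hspa1b, and the match starts 104 bases before the start of each gene. The window of Hsph1, the HSP110 co-chaperone at chr5:149636287-149636586 (minus strand), holds 3 matches, 2 of them overlapping.
Hspa1a: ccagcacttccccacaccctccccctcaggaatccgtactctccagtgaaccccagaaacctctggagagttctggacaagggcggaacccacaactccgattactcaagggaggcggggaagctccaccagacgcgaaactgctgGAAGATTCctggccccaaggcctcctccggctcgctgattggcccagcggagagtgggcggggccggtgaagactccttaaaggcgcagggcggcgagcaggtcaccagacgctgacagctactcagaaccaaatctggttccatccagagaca
Hspa1b: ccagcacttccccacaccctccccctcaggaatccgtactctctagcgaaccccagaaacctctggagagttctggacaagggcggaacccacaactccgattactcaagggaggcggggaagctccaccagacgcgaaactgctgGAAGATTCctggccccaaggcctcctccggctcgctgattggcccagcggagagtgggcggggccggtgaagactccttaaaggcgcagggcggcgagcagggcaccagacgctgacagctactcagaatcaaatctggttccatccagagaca
Hsph1: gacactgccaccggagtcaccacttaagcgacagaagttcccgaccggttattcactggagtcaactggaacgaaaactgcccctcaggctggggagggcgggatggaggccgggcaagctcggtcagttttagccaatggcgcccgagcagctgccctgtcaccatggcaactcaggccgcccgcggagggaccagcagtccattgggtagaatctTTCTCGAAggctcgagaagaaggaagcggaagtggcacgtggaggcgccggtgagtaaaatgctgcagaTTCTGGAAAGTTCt

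The windows of Hspa1a and Hspa1b were identical at 296 of 300 positions, and the genes themselves are near-identical, so the split of reads between them is uncertain. On either strand, the 2-unit letters were found in 12 of the 19 chaperone genes with a window (63.2%), in 14.1% of 12178 tested genes with a window and in 15.1% of all 32851 windows. Of the chaperone genes that passed, Hspa1a, Hspa1b and Dnaja1 held these letters, and Dnajb1, which has a window, did not. The longer 3-unit form, GAANNTTCNNGAA or TTCNNGAANNTTC, was found in 4 of the 19 (Hsph1, Hspd1, Hspe1 and Chordc1) and in 0.534% of tested genes; each such match also holds the 2-unit letters. None of the chaperone genes with the 3-unit form passed. A match is a description of the letters and shows no binding.

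The mean log2 CPM of the heat shock chaperone list was above every vehicle library in 4 of the 5 treated libraries. Of 24 tested members, 4 rose against a background of 0.114% of genes, 15 were higher at an unadjusted p of 0.05 (7.10% of all genes), 20 had a positive log2 fold change and the median was 0.41. Hspa1b had 1.25 to 5.74 CPM with vehicle, with a median of 2.80, and 3.32, 21.3, 26.8, 33.2 and 168 CPM under ABT-263. Replicate 1 was within the vehicle range, and replicate 5 was far above the others. Hspa1a had 1.55 to 6.64 CPM with vehicle and 3.53, 19.0, 25.6, 30.8 and 163 CPM under ABT-263. The log2 fold changes were 3.96 ± 0.69 for Hspa1b (adjusted p = 0.0275) and 3.78 ± 0.70 for Hspa1a (adjusted p = 0.0341).

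The co-chaperones that hand clients to HSP70 were arranged alike. Dnajb1 had 34.2 to 57.9 CPM with vehicle and 44.3, 103, 122, 114 and 230.0 CPM under ABT-263 (1.42 ± 0.25, adjusted p = 0.0275). Dnaja1 had 58.2 to 83.5 CPM with vehicle and 73.9, 119, 147, 146 and 262 CPM under ABT-263 (1.01 ± 0.20, adjusted p = 0.0358). In both genes only replicate 1 fell inside the vehicle range. Among members that did not pass, Hsph1 was at 30.8, 87.1, 122, 122 and 314 CPM under ABT-263 against 48.3 to 60.3 CPM with vehicle (1.32 ± 0.38, adjusted p = 0.144), and the constitutive Hspa8 was at 483, 754, 746, 980.3 and 1462 CPM against 499 to 572 CPM (0.70 ± 0.16, adjusted p = 0.0639).

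No chaperone gene separated the groups completely, because ABT-263 replicate 1, the library tagged as vehicle, was within or below the vehicle range of each member named. Without it, 10 chaperone genes passed; without it and vehicle replicate 1 together, 7 passed and the median of the list was 0.50. The calls also rested on replicate 5: without that library 0 passed, and the log2 fold changes of Hspa1a and Hspa1b were 2.50 and 2.71. None passed without ABT-263 replicate 4 or without vehicle replicates 1, 2 or 4, and 2 passed without vehicle replicate 3. With the 11 hypoxia libraries fitted alone 0 passed, as with limma-voom, while DESeq2 called 9. The chaperone values also followed the library numbers in the sample titles, by which replicates are ordered here. In 10 of the 24 members (41.7%), Hspa1a and Hspa1b among them, the 5 treated values increased with that number, as in 1.36% of all genes. Across the 6 vehicle libraries 1 member did so, Dnaja1, with 58.2, 68.9, 74.8, 79.4, 82.0 and 83.5 CPM, against 0.282% of all genes. What the numbers stand for is not given in the sources used here, and since every treated library has a higher number than every vehicle library, number and treatment cannot be told apart.

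Genes of the endoplasmic reticulum stress response had 0 of 22 members called by edgeR, 5 higher at an unadjusted p of 0.05 (7.10% of all genes) and a median of 0.13.

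**Figure D2:**
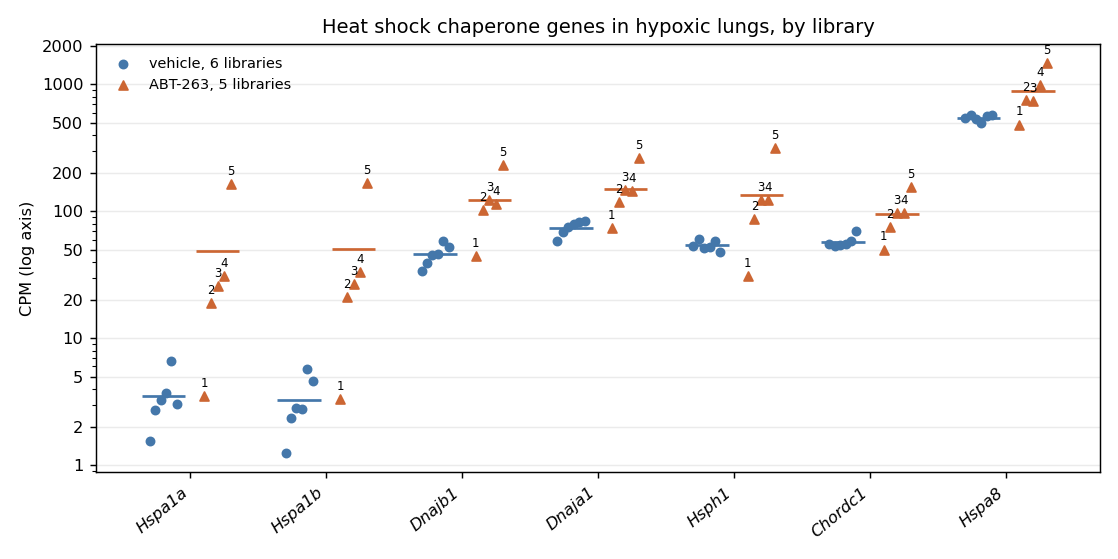
CPM on a log axis of 7 heat shock chaperone genes, with 1 point per library (blue circles, 6 vehicle; orange triangles, 5 ABT-263 with the replicate number above) and a line at each group mean. ABT-263 replicate 1 lies with or below the vehicle libraries for all 7 genes, and replicate 5 is the highest library for each, at 168 CPM for Hspa1b.

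Genes of mitosis and G2/M were higher in all 5 treated libraries as a list, yet no single gene passed. Of 32 tested members, 0 were called by edgeR and 0 by limma-voom, 3 by DESeq2 and 25 when the 11 hypoxia libraries were fitted alone. At an unadjusted p of 0.05, 28 were higher, as were 7.10% of all genes. A positive log2 fold change was seen in 31, and the median was 1.24 against -0.01 for all genes. For 19 members every ABT-263 library lay above every vehicle library, where 1.26% of all genes did so. The list score, the mean log2 CPM of its members, lay 0.42 to 1.77 above the vehicle mean in the treated libraries and no more than 0.26 above it in any vehicle library. The fit of the 11 libraries alone takes its estimate of spread from them and leaves out the normoxic libraries.

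Mki67, whose protein coats chromosomes in dividing cells, had 9.37 to 18.0 CPM with vehicle and 41.6, 28.5, 19.1, 45.1 and 33.6 CPM under ABT-263. The groups did not overlap, and the log2 fold change was 1.31 ± 0.46 (adjusted p = 0.213). Top2a, the topoisomerase that untangles chromosomes, had 8.79 to 16.8 CPM with vehicle and 36.3, 23.9, 16.3, 55.9 and 26.3 CPM under ABT-263, with replicate 3 inside the vehicle range (1.26 ± 0.54, adjusted p = 0.296). The smallest p of the list was that of Kif11, the kinesin that pushes spindle poles apart, with 1.18 to 2.07 CPM with vehicle and 3.32, 3.82, 2.62, 4.17 and 3.47 CPM under ABT-263 (1.26 ± 0.34, adjusted p = 0.0984). The kinetochore gene Ndc80 (1.22 ± 0.34, adjusted p = 0.123), the chromosomal passenger genes Cdca8 (1.31 ± 0.42, adjusted p = 0.170) and Birc5 (1.28 ± 0.42, adjusted p = 0.185), and Cenpf (1.57 ± 0.51, adjusted p = 0.183) separated the groups without passing.

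Promoters of many G2/M genes carry a cell cycle homology region, TTTGAA, near a CCAAT box, elements known for repression in resting cells and for activation before mitosis. The windows of Kif11 (chr19:37376132-37376431, plus strand) and Cdk1, the mitotic kinase (chr10:69352863-69353162, minus strand), are shown as members that hold both, with capitals on each match to TTTGAA or TTCAAA and to CCAAT or ATTGG.
Kif11: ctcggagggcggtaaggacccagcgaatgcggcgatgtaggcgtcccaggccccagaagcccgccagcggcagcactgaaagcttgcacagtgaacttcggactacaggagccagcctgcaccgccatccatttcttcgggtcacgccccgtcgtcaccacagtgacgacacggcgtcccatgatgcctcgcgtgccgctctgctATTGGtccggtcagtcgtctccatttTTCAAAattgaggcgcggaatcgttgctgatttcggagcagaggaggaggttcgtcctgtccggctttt
Cdk1: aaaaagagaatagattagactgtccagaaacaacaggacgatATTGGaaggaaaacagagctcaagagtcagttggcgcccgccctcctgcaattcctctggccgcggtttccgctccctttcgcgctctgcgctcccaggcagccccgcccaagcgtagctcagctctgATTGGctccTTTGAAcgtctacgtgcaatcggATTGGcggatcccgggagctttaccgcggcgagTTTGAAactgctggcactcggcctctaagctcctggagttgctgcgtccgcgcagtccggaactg

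Of the 25 members with a window, 19 (76.0%) held the homology region, 20 (80.0%) the CCAAT box and 16 (64.0%) both. Over the tested genes with a window, these shares were 14.9%, 41.9% and 5.95%. Neither motif contains the other. By contrast, the octamer ATGCAAAT or ATTTGCAT of immunoglobulin promoters was in the window of 1 of 18 B cell genes, Blnk, and in 1.60% of tested genes.

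Genes of DNA replication and S phase were higher to a smaller degree. Their median was 0.40, with 0 of 32 called by edgeR, 2 by DESeq2, 6 when the 11 hypoxia libraries were fitted alone, 18 higher at an unadjusted p of 0.05 (7.10% of all genes) and 12 without overlap (1.26% of all genes). Slbp, which binds histone messages in S phase, had 19.98 to 25.3 CPM with vehicle and 27.2, 26.4, 28.9, 31.5 and 29.3 CPM under ABT-263 (0.33 ± 0.09, adjusted p = 0.115). Ccne2, a cyclin of S phase entry, had 5.72 to 7.40 CPM with vehicle and 10.02, 11.2, 8.76, 14.6 and 12.97 CPM under ABT-263 (0.76 ± 0.25, adjusted p = 0.187). Both genes separated the groups. Ezh2, the methyltransferase of Polycomb repressive complex 2 and a gene of dividing cells, did pass: its vehicle range was 14.2 to 16.3 CPM, and the ABT-263 libraries were at 19.5, 21.99, 23.2, 25.7 and 23.1 CPM (0.58 ± 0.13, adjusted p = 0.0415). Rad51c, a homologous recombination factor, also rose, from a vehicle range of 0.691 to 1.61 CPM to 1.95, 2.52, 1.88, 2.55 and 2.73 CPM (1.11 ± 0.25, adjusted p = 0.0497).

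In ABT-263 replicates 1 and 4 a further programme was high. Multiciliated cells amplify centrioles under Mcidas, and Mcidas was at 5.05 and 5.02 CPM in these libraries, while the other treated libraries were at 0.521, 0.818 and 0.496 CPM and the vehicle libraries at 0.435 to 1.03 CPM. The group difference was 1.71 ± 0.95 (adjusted p = 0.425). Ccno was at 15.3 and 24.5 CPM in replicates 1 and 4 against 2.86 to 4.35 CPM in the other treated libraries and 2.46 to 5.74 CPM with vehicle. Deup1, a scaffold of the deuterosome, was at 28.8 and 30.2 CPM against 7.02 to 10.1 CPM and 5.68 to 11.8 CPM. These libraries also had the highest scores for mitosis. With both left out, the median of the mitosis list was 0.84, and that of the multiciliated regulators changed from 0.43 to -0.16. Both were picked for their high Mcidas after values were seen, so a lower median of the multiciliated regulators follows from that choice. The choice did not use the mitosis list, whose scores in these libraries lay 1.29 and 1.77 above the vehicle mean. Structural genes of motile cilia did not move with the regulators: all 23 tested members had a negative log2 fold change, with a median of -0.28. By edgeR 0 were called, and 5 were lower at an unadjusted p of 0.05 (7.24% of all genes). Outside the list, the outer dynein arm docking gene Ccdc114 did pass (-0.46 ± 0.10, adjusted p = 0.0415). Foxj1, the master regulator of motile cilia, was at 100.2 to 221 CPM with vehicle and 134, 162, 175, 221 and 191 CPM under ABT-263 (0.09 ± 0.17, adjusted p = 0.863).

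**Figure D3:**
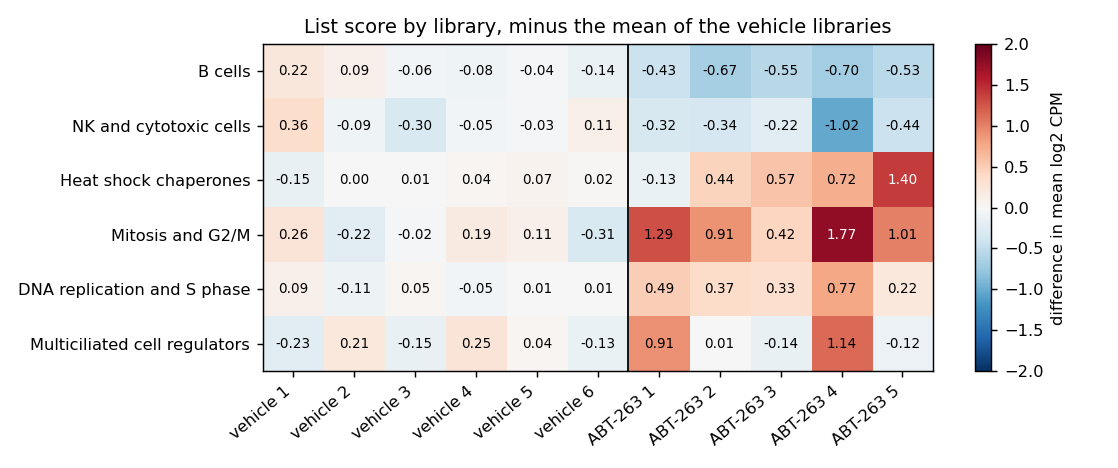
List score per library (mean log2 CPM of the tested members) minus the mean of the 6 vehicle libraries, for 6 gene lists; red is higher and blue lower, and each cell prints its value. B cell scores are below all vehicle scores in each treated library, heat shock scores are high in ABT-263 replicates 2 to 5, mitosis scores are high in all 5, and the multiciliated score is high in replicates 1 and 4.

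The targets of the compound and their partners showed no change at the transcript level that passed. Bcl2 had 19.4 to 23.97 CPM with vehicle and 24.1, 18.9, 23.8, 25.5 and 21.1 CPM under ABT-263 (0.06 ± 0.09, adjusted p = 0.790). Bcl2l1, which encodes BCL-XL, had 89.5 to 117 CPM with vehicle and 105, 109, 113, 134 and 113 CPM under ABT-263 (0.19 ± 0.11, adjusted p = 0.440). Bcl2l2, which encodes BCL-W, had 100.4 to 122 CPM with vehicle and 115, 109.9, 70.5, 99.2 and 124 CPM under ABT-263 (-0.10 ± 0.11, adjusted p = 0.730). The groups overlapped for all 3 genes. Mcl1, the family member that ABT-263 does not block well, was at 419 to 550.9 CPM with vehicle and 455, 588, 572, 581 and 642 CPM under ABT-263 (0.25 ± 0.09, adjusted p = 0.208). The effectors Bax (0.08 ± 0.08, adjusted p = 0.690) and Bak1 (0.08 ± 0.12, adjusted p = 0.796) and the initiator Bcl2l11 (-0.07 ± 0.12, adjusted p = 0.841) overlapped too. Of the anti-apoptotic list 0 of 7 tested members passed and of the pro-apoptotic list 0 of 14 in edgeR. At an unadjusted p of 0.05, 1 of the former was higher and 2 of the latter were lower (7.10% and 7.24% of all genes).

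Among death receptors, Tnfrsf10b rose. It encodes the mouse receptor of TRAIL and is a target of p53. The gene was the 1 called of 33 tested p53 targets and of 28 tested death receptor and caspase genes, against 0.301% of all genes. The vehicle libraries ranged from 3.68 to 5.51 CPM, and the ABT-263 libraries were at 6.13, 7.30, 5.89, 7.71 and 11.2 CPM, all above the vehicle range (0.76 ± 0.16, adjusted p = 0.0358). Fas, the receptor of FAS ligand, was at 63.0 to 90.1 CPM with vehicle and 75.6, 97.7, 108, 98.9 and 103 CPM under ABT-263 (0.37 ± 0.09, adjusted p = 0.0709). Cdkn1a, the p53 target p21 that is also a marker of senescence, was at 45.3 to 73.6 CPM with vehicle and 68.4, 64.7, 66.1, 105 and 75.7 CPM under ABT-263, with overlap (0.39 ± 0.16, adjusted p = 0.276). Cdkn2b was at 27.4 to 39.3 CPM with vehicle and 37.7, 32.3, 32.0, 30.6 and 25.3 CPM under ABT-263 (-0.15 ± 0.11, adjusted p = 0.552). Cdkn2a, the locus of p16, had 2 to 9 counts per vehicle library and 4 to 7 per treated library, too few for the test across genes. The exact two-sided permutation p for its CPM was 0.597, so a difference was not detectable at this depth. Of 55 tested senescence-associated secreted factors, 0 passed in edgeR, and the median was 0.11. At an unadjusted p of 0.05, 10 of them were higher and 2 lower (7.10% and 7.24% of all genes).

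The glucose transporter Slc2a1 (GLUT1) was the 1 called gene of 37 tested HIF targets (0.301% of all genes were called), the genes that hypoxia-inducible factors activate. It had 31.6 to 48.1 CPM with vehicle and 31.6, 25.2, 28.3, 27.3 and 24.9 CPM under ABT-263 (-0.53 ± 0.11, adjusted p = 0.0358). The lowest vehicle library and the highest treated library, which are the 2 hypoxia libraries with contradictory tags, were nearly level at 31.6 CPM. Pdk1, which diverts pyruvate from mitochondria, separated the groups without passing (51.3 to 58.6 CPM with vehicle; 49.9, 46.9, 40.4, 42.7 and 43.9 CPM under ABT-263; -0.28 ± 0.07, adjusted p = 0.0673), and the lactate exporter Slc16a3 had a negative value with overlap (-0.38 ± 0.10, adjusted p = 0.0951). The list did not move in 1 direction: 28 members had a negative and 9 a positive log2 fold change, with a median of -0.07, and Angptl4 was higher in all treated libraries (0.75 ± 0.21, adjusted p = 0.125).

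Of the 50 called genes, 30 were on none of the 59 lists. Among the others that fell were the T-type calcium channel gene Cacna1i (-1.05 ± 0.21), with 2.32 to 3.57 CPM with vehicle and 1.73, 1.04, 1.47, 1.27 and 1.57 CPM under ABT-263, and Ggt6, a gamma-glutamyltransferase (-0.93 ± 0.16), with 3.24 to 5.70 CPM with vehicle and 2.16, 2.52, 2.46, 2.83 and 1.90 CPM under ABT-263. Neither gene showed overlap (adjusted p = 0.0294 and 0.0178). A gene model and an antisense transcript were also lower without overlap, 2010109I03Rik (-0.91 ± 0.19) and the antisense model Gm43579 (-0.85 ± 0.15). Mfsd6l (-0.66 ± 0.15), the outer dynein arm docking gene Ccdc114 (-0.46 ± 0.10), the TAK1 partner Tab1 (-0.53 ± 0.09), Them6 (-0.39 ± 0.09) and the gamma-secretase subunit gene Psen2 (-0.29 ± 0.06) fell as well. Of these only Psen2 separated the groups.

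Tmem252, which encodes a small membrane protein, led the genes that rose outside the lists. It had 14.8 to 23.6 CPM with vehicle and 20.9, 33.5, 42.7, 64.4 and 68.7 CPM under ABT-263, with replicate 1 inside the vehicle range (1.24 ± 0.22, adjusted p = 0.0232). Zfp366, a nuclear repressor of dendritic cells, had 8.07 to 12.9 CPM with vehicle and 11.3, 17.3, 17.8, 21.3 and 29.2 CPM under ABT-263 (0.90 ± 0.18, adjusted p = 0.0294), and Ccdc117 had 48.1 to 59.5 CPM with vehicle and 51.5, 84.7, 89.7, 86.1 and 145 CPM under ABT-263 (0.76 ± 0.15, adjusted p = 0.0306). These genes shared the low value in replicate 1 with the chaperones. Plekhf1 (0.74 ± 0.16), Erlin1 (0.47 ± 0.10) and Cep85l (0.52 ± 0.11) overlapped as well. The treated values of Tmem252, Zfp366 and Erlin1 only increased with library number. Of the 50 called genes, 5 (10%) did so in the treated group, against 1.36% of all genes. Sema7a, a semaphorin anchored in the membrane, separated the groups with 40.3 to 53 CPM with vehicle and 58.6, 69.2, 80.2, 92.2 and 79.0 CPM under ABT-263 (0.65 ± 0.14, adjusted p = 0.0429). Msantd1 (0.90 ± 0.20), the long noncoding Gm6712 (1.18 ± 0.26), the glycolipid carrier gene Plekha8 (0.41 ± 0.08), Zfp790 (0.40 ± 0.08) and the SUMO protease gene Uspl1 (0.37 ± 0.08) rose without overlap.

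Most cell type and pathway lists held no called gene: 49 of 59 had 0 in edgeR. Extracellular matrix genes had 38 of 40 tested members positive, with a median of 0.21 and 10 higher at an unadjusted p of 0.05 (7.10% of all genes). Their smallest p was that of the microfibril gene Fbn1 (0.31 ± 0.09, adjusted p = 0.127). The mean log2 CPM of the matrix list was 6.46 to 6.61 with vehicle and 6.75, 6.51, 6.52, 7.05 and 6.72 under ABT-263. Treated replicates 2 and 3 thus lay inside the vehicle range, and the normoxic median of the list was -0.01. Glucocorticoid targets had a median of 0.38 with 7 of 22 higher at an unadjusted p of 0.05 (7.10% of all genes). Their mean log2 CPM increased with library number across the vehicle libraries, from 5.08 to 5.71, and was 5.43 to 5.98 under ABT-263. In 4 of the 22 members (18.2%) the vehicle values only increased with that number, as in 0.282% of all genes. For this list too, number and treatment cannot be told apart. Cardiac muscle genes, which mouse pulmonary veins also express, had 16 of 16 negative, a median of -0.34 and 7 lower at an unadjusted p of 0.05 (7.24% of all genes). Medians stayed close to 0 for alveolar type 2 genes (0.03), alveolar type 1 genes (0.01), pan-endothelial genes (0.07), platelet and megakaryocyte genes (0.08) and interferon-stimulated genes (0.00). Neutrophil genes had a median of -0.20 with 4 of 16 lower at an unadjusted p of 0.05, and smooth muscle genes one of -0.18 with 5 of 20 lower and 1 higher. Over all genes, 7.24% were lower and 7.10% higher at that p. Bmpr2, the gene most often mutated in heritable pulmonary arterial hypertension, was at 152 to 198 CPM with vehicle and 184, 161, 155, 162 and 222 CPM under ABT-263 (0.02 ± 0.12, adjusted p = 0.951).

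**Figure D4:**
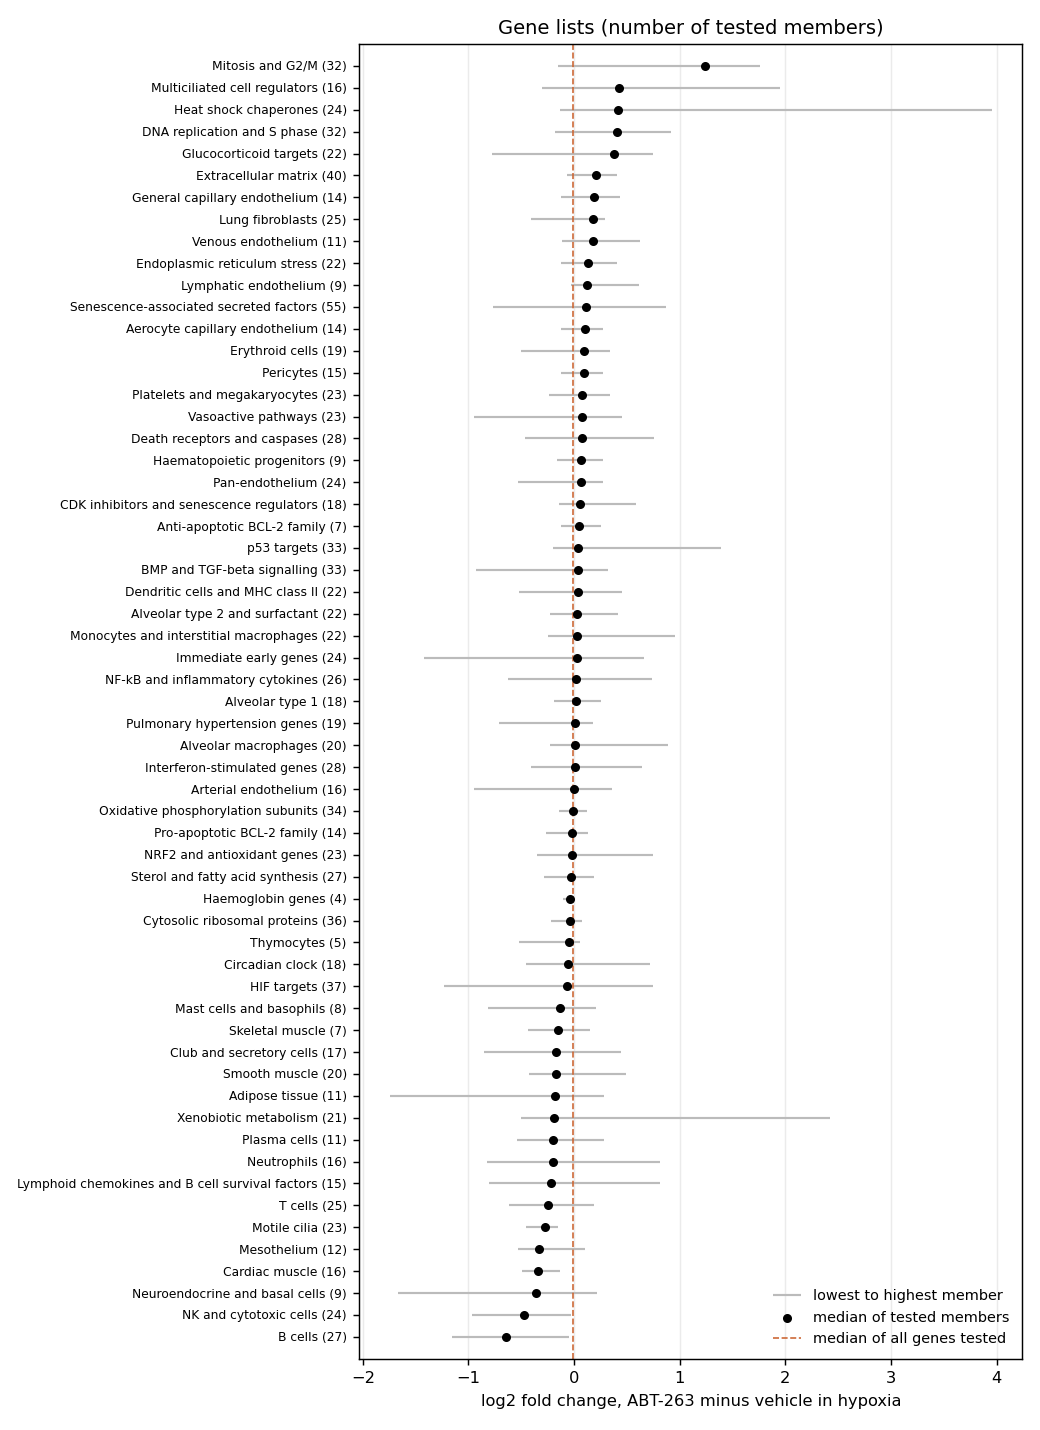
Median log2 fold change of the tested members of each of 59 gene lists (black points, number of tested members in brackets), with a grey line from the lowest to the highest member and a dashed line at the median of all genes. Mitosis and G2/M is at the top with 1.24 and B cells at the bottom with -0.64.

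The same contrast in normoxic libraries shares no library with the hypoxic one. There, 18 genes were higher (0.108%) and 71 lower (0.427%). Of the 50 genes called in hypoxia, 15 were also called in normoxia and 41 had the same sign. The B cell genes fell in both conditions: 14 list members were called lower in normoxia, with a median of -0.60, and Ighd had a log2 fold change of -0.83 ± 0.12 there (adjusted p = 0.00744). Genes of NK and cytotoxic cells had a normoxic median of -0.73 with 8 of 24 called lower, against -0.47 and 1 in hypoxia. For T cell genes the normoxic median was -0.50 with 6 of 25 called lower, against -0.25 and 0 in hypoxia. The mitosis list had a median of 1.36 in normoxia with 0 called by edgeR. The multiciliated regulators had a normoxic median of 1.21, against 0.43 in hypoxia, also with 0 called. Normoxic Mcidas averaged 9.71 CPM with ABT-263 (SD 9.44, n = 6) and 0.982 CPM with vehicle (SD 0.547, n = 5). Its log2 fold change was 3.28 ± 0.88 (adjusted p = 0.0945), and that of Foxj1 was 0.64 ± 0.17 (adjusted p = 0.0868). The motile cilia list had a normoxic median of 0.21 with 0 called, against -0.28 in hypoxia. The chaperones differed in size, with a normoxic median of 0.18 and 0 called by edgeR, and log2 fold changes of 0.94 ± 0.77 for Hspa1b and 0.29 ± 0.26 for Dnajb1. Slc2a1 and Ggt6 had normoxic values of 0.12 ± 0.11 and 0.03 ± 0.16. Cdkn1a was called in normoxia (0.77 ± 0.16, adjusted p = 0.0328) and not in hypoxia. Platelet and megakaryocyte genes had a normoxic median of 0.55 with 2 of 23 called higher (0.108% of all genes), against 0.08 and 0 in hypoxia.

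Whether the effect of ABT-263 differed between oxygen conditions was tested with the interaction. No gene passed in edgeR (0 of 16638, smallest adjusted p 0.286), while 17 were called by DESeq2, 0 by limma-voom, and 1546 (9.29%) reached an unadjusted p of 0.05 in edgeR. Of the 50 genes chosen for their change in hypoxia, 23 had an unadjusted interaction p under 0.05, 14 of those that rose and 9 of those that fell, a count that the choice of genes raises. None of the differences named in this comparison passed: the interaction was 3.02 ± 1.04 for Hspa1b (adjusted p = 0.378), -0.64 ± 0.15 for Slc2a1 (adjusted p = 0.286), -0.96 ± 0.23 for Ggt6 (adjusted p = 0.286) and 1.21 ± 0.31 for Tmem252 (adjusted p = 0.286). For Cd79a it was -0.20 ± 0.17 (adjusted p = 0.776). With vehicle alone, the hypoxic lungs already had lower B cell genes than the normoxic ones, with a list median of -0.78; that contrast shares its vehicle libraries with both ABT-263 contrasts.

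**Figure D5:**
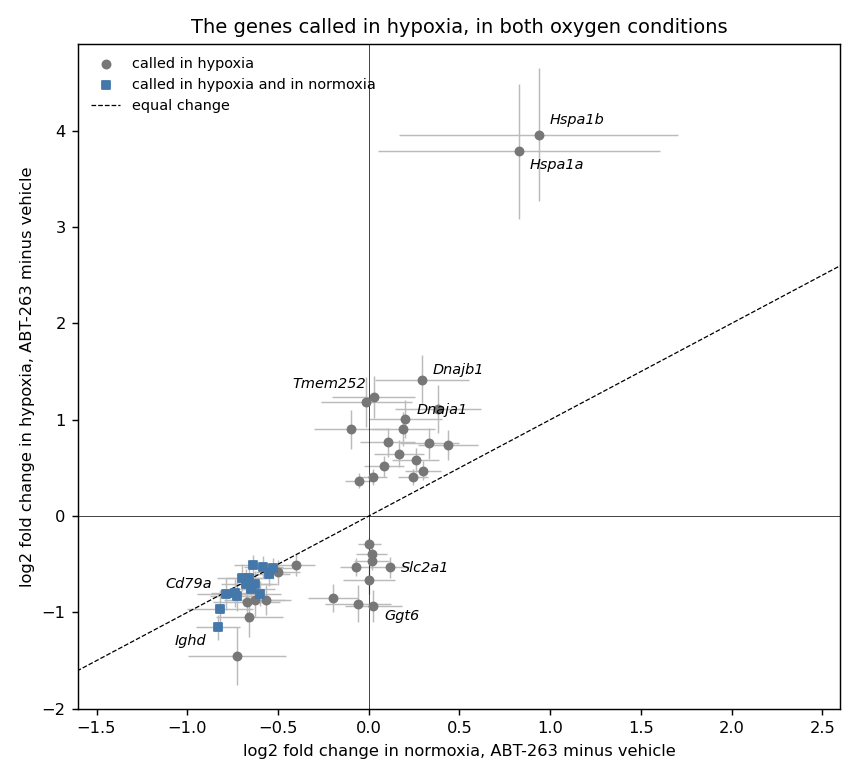
Log2 fold change of ABT-263 minus vehicle in normoxia (x axis) and hypoxia (y axis) for the 50 genes called in hypoxia, with bars of 1 SE; blue squares mark the 15 called in both conditions and the dashed line marks equal change. Ighd and Cd79a lie near the line, Hspa1a and Hspa1b lie far above it, and Slc2a1 and Ggt6 lie below 0 in hypoxia and near 0 in normoxia.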

How the data were processed

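Whole-lung RNA was sequenced from 22 libraries, per the labels with a stranded TruSeq mRNA kit. The authors deposited 1 table of expected counts per gene, which were made with RSEM per the submitters' processing notes. Those notes name no versions and also list the GRCm38 build, STAR and Trimmomatic. RSEM splits reads that fit several genes, so near-identical genes (Hspa1a and Hspa1b, immunoglobulin segments, Klra genes) are uncertain. Of 54532 identifiers, 54495 matched GENCODE M21, used for coordinates.

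Expected counts were rounded. Genes were filtered with filterByExpr (minimum count 10), scaled with TMM and tested with edgeR 4.0.16 (robust quasi-likelihood; R 4.3.3, limma 3.58.1) in 1 fit of all 22 libraries, which shares the estimate of spread. Benjamini-Hochberg adjustment covered all 16638 genes, with a threshold of 0.05, and "passed", "called", "rose" and "fell" mean below it. Log2 fold changes are ABT-263 minus vehicle with SE. Levels are TMM-scaled CPM, ordered by replicate number, which follows the library number in the titles. The median SE was 0.11, and totals ran from 11509007 to 15744193 counts. DESeq2 1.42.0 was an alternative. Some called genes are not reported here.

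The comparison, its 59 lists, the named genes and the tests were chosen with earlier results of these data known, and no list was tested as a set. Values per library are given for the 15 largest rises and falls of at least 2 CPM outside gene models and immunoglobulin segments, list members that passed, the members of lowest p in other lists (at most 4 each), and a fixed set that includes Bcl2, Cdkn1a, Cdkn2a and Mki67; Rad51c, Ezh2 and others outside it are named as called genes. The 2-unit heat shock, TTTGAA and CCAAT searches, and the genes named in Additional observations, were chosen after values were seen. Promoter windows are from RefSeq (GRCm38.p6).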

Additional observations from a re-analysis of the deposited data

Results flagged for a closer look

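The highest or lowest library of a group stood apart by Dixon's criterion (95% level) in 15 of 156 groups looked at, where chance flags about 1 in 20. With ABT-263, replicate 5 was far above the others for Hspa1a (163 CPM; others 3.53 to 30.8), Hspa1b (168 CPM; others 3.32 to 33.2) and Igkc (141 CPM; others 84.9 to 98.7). Replicate 4 was highest for Bcl2l1 (134 CPM; others 105 to 113) and Cdkn1a (105 CPM; others 64.7 to 75.7), and its NK and cytotoxic cell score was lowest (1.04 mean log2 CPM; others 1.62 to 1.84). Replicate 1, tagged as vehicle, was highest for Ighd (31.9 CPM; others 20.8 to 23.9), and replicate 3 for H2-Ob (30.0 CPM; others 21.3 to 23.6).

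With vehicle, replicate 1, tagged as ABT-263, was highest for Cd22 (26.7 CPM; others 15.9 to 19.7) and Cd79b (74.2 CPM; others 52.2 to 59.2), and its heat shock score was lowest (5.88 mean log2 CPM; others 6.03 to 6.10). Replicate 6 was highest for Gm43579 (9.06 CPM; others 6.73 to 7.39), the called kappa variable segment (4.04 CPM; others 1.38 to 2.17) and Psen2 (30.8 CPM; others 25.5 to 27.2). Replicate 5 was lowest for Tab1 (18.9 CPM; others 24.1 to 25.9).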

How the results depend on the processing

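No paired analysis was possible because the labels give no number shared between groups. The called genes kept their direction, but not their calls, under the alternatives that gave them a value (34 for 49 of the 50; 33 for Gm6712, which had no adjusted p in DESeq2). The count of 50 became 152 with only the 11 hypoxia libraries, 77 without the 3 libraries with contradictory labels, 247 with DESeq2 (49 of the 50 among them), 9 with limma-voom, 10 with a 2-fold threshold and 0 with treatment read from the tag (1650 at an unadjusted p of 0.05). It was 122 without ABT-263 replicates 1 and 4 and 111 without the 2 hypoxia libraries with contradictory tags, both chosen after seeing the data. Leaving out 1 library gave 3 to 228 genes. Other scalings and filters gave 36 to 47.

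The interaction count of 0 became 17 with DESeq2, 1 without the 3 libraries with contradictory labels, 2 without ABT-263 replicates 1 and 4, 1 without the 2 hypoxia libraries with contradictory tags, and 0 to 2 with 1 library left out. The causes were not tested. B cell calls ranged from 2 to 14 with 1 library left out and were 0 with treatment read from the tag, where the list median was -0.33. Ighd and Cd79a passed in 33 of 34 alternatives, Hspa1b in 26 and Slc2a1 in 25.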

Other observations

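Genes in this section were chosen after their values were seen. Several genes just outside the threshold separated the groups. Bcl11a, a transcription factor of B lymphoid and plasmacytoid cells, had a log2 fold change of -0.88 ± 0.20 (adjusted p = 0.0507), the class II loading gene H2-DMb2 one of -0.50 ± 0.11 (adjusted p = 0.0507) and the oxysterol receptor gene Gpr183, which positions B cells in follicles, one of -0.64 ± 0.15 (adjusted p = 0.0585). Higher with ABT-263 were Npat, the activator of histone genes at S phase entry (0.38 ± 0.09, adjusted p = 0.0507), Atad2 (0.996 ± 0.232, adjusted p = 0.0564), Lmnb2 (0.53 ± 0.12, adjusted p = 0.0558), Mybl1 (1.21 ± 0.29, adjusted p = 0.0604) and the mitotic kinesin gene Kif4 (1.28 ± 0.31, adjusted p = 0.0673). Marco, a scavenger receptor of alveolar macrophages, was at 4.94 to 10.6 CPM with vehicle and 12.9, 13.6, 11.6, 24.3 and 13.2 CPM under ABT-263 (0.87 ± 0.20, adjusted p = 0.0513).

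Some genes spread widely within a group, along the library numbers in the titles. Ankrd37, a target of hypoxia-inducible factor, was at 136, 119, 58.4, 45.7, 36.4 and 30.2 CPM with vehicle and at 111, 12.95, 11.5, 6.86 and 7.52 CPM under ABT-263 (-1.24 ± 0.61, adjusted p = 0.363), so replicate 1 was within the vehicle range and the other treated libraries were below it. The clock gene Per1 was at 13.7, 15.8, 31.2, 44.0, 54.8 and 59.5 CPM with vehicle and at 35.4, 61.5, 74.6, 58.5 and 70.3 CPM under ABT-263 (0.72 ± 0.35, adjusted p = 0.359). Tsc22d3, the glucocorticoid-induced leucine zipper, was at 96.8, 130, 166, 190, 271 and 349 CPM with vehicle and at 165, 291, 402, 330.2 and 459 CPM under ABT-263 (0.72 ± 0.32, adjusted p = 0.313). For both, the treated libraries overlapped the vehicle range, with replicate 1 the lowest of the treated group. In the order of the library numbers the 6 vehicle values of Ankrd37 only decreased, as in 0.216% of all genes, and those of Per1 and Tsc22d3 only increased, as in 0.282%. Number and treatment cannot be told apart between the groups. Cyp1a1, the target of the aryl hydrocarbon receptor, was at 42.7 CPM in ABT-263 replicate 4 and at 2.31 to 4.99 CPM in the other treated libraries, against 1.25 to 2.88 CPM with vehicle (2.42 ± 0.68, adjusted p = 0.133).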
